A study of Mus musculus with 95 samples.

Results

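The 9 genes described here encode the catalytic pair of Polycomb repressive complex 1 (PRC1) and the partners of its PCGF1 form, and their RNA levels and start sites were followed through mouse embryonic stem cells that lack different PCGF proteins. Of 23377 genes in the deposited count table, they were Ring1, Rnf2, Rybp, Yaf2, Kdm2b, Bcor, Bcorl1, Skp1a and Usp7, taken by name from knowledge of the complex. All 9 passed the filter on low counts. The question was whether the other parts of the complex are raised or lowered when 1 or several PCGF proteins are lost.

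PRC1 places ubiquitin on histone H2A through a RING1 protein, RING1A (gene Ring1) or RING1B (gene Rnf2), which pairs with 1 PCGF protein. RYBP or YAF2 takes the place of a chromobox protein in the variant forms and raises their catalytic activity. In the PCGF1 form, KDM2B reads unmethylated CpG islands through its zinc finger, BCOR or BCORL1 binds PCGF1 directly, SKP1 binds the F-box of KDM2B, and USP7 is a ubiquitin protease that copurifies with the complex.

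The wild-type and PCGF knockout cells were of the mouse E14 embryonic stem cell line, kept in gelatin-coated dishes with serum, LIF and inhibitors of the kinases GSK3 and MEK. RNA libraries covered wild-type cells and the genotypes Pcgf1-/-, Pcgf2/4-/-, Pcgf3/5-/-, Pcgf6-/-, Pcgf1/2/4-/- and Pcgf3/5/6-/-, with 2 libraries each. The knockouts were isolated clones made with Cas9 and guide RNAs, and double and triple knockouts came from further editing of single-knockout clones. In the count table both libraries of a knockout carry the same number after the line's name, so each knockout is taken here as 1 clone, and differences of that clone and of the genotype cannot be told apart. The labels do not say whether the 2 libraries were separate cultures, so p-values measure the spread between these libraries, which may be technical. The peak lists came from 1 sample per antibody and line, except for RING1B and H2AK119Ub1 in Pcgf1/2/4-/- with 2. A line with Ring1a deleted, Ring1b floxed and an inducible Cre (Ring1a-/-_Ring1bfl), the line without both (Ring1a/b-/-), an Ezh1/2-/- line and control-hairpin cells (shCtr) were used for ChIP-seq alone. Likewise used for ChIP-seq alone were cells labelled shMGA, shMGAdHLH, shE2F6 and shE2F6-MGAdHLH, for PCGF6, and shUsf1 and shUsf2, for PCGF3.

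The 14 libraries held 2147968 to 7848161 counts. The wild-type libraries differed from each other by less than sampling noise (chi-square per degree of freedom 0.958, against 1.18 to 19.5 in the knockouts), and were counted as 1 sample, so that no SD is given for wild-type. The edgeR quasi-likelihood fit used all 14 libraries, and each call against wild-type was repeated with the wild-type libraries summed as 1. All 6 comparisons with wild-type share those libraries and are not independent of each other.

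The targeted genes checked the labels only in part. Pcgf1 stood at 66.1 and 61.0 CPM (counts scaled to a common library size with TMM factors) in the wild-type libraries, at 4.81 and 3.20 in Pcgf1-/- and at 0.53 and 0.90 in Pcgf1/2/4-/-. Pcgf6 had no count in either Pcgf6-/- library, but 42.0 and 37.2 CPM in the libraries labelled Pcgf3/5/6-/-, against 36.2 and 34.3 in wild-type. Pcgf2 stood at 41.0 and 54.8 CPM in the libraries labelled Pcgf2/4-/- and 57.1 and 56.9 in those labelled Pcgf1/2/4-/-, against 42.9 and 48.9 in wild-type. Pcgf3 stood at 16.4 and 15.5 CPM in wild-type, 11.4 and 12.8 in the libraries labelled Pcgf3/5-/- and 13.6 and 13.5 in those labelled Pcgf3/5/6-/-. Pcgf5 stood at 13.0 and 10.8 CPM in wild-type, 5.48 and 4.60 in the libraries labelled Pcgf3/5-/- and 16.4 and 13.5 in those labelled Pcgf3/5/6-/-. Bmi1, the PCGF4 gene, stood at 16.1 and 14.2 CPM in wild-type, 12.1 and 14.1 in the libraries labelled Pcgf2/4-/- and 13.9 and 19.9 in those labelled Pcgf1/2/4-/-. Whole-gene counts cannot show a small edit that leaves the RNA in place, so these 3 genotypes, with Pcgf3/5-/-, are named as labelled. In the ChIP-seq samples, PCGF2 peaks lay near starts of 12.5% of genes in wild-type, 3.31% in Pcgf2/4-/- and 9.44% to 19.1% in Pcgf1-/-, Pcgf3/5-/- and Pcgf6-/-. For PCGF3 these shares were 0.823% in wild-type, 0.0447% in Pcgf3/5-/- and 0.246% to 2.21% in Pcgf1-/-, Pcgf2/4-/- and Pcgf6-/-. The triple knockouts had no PCGF list. The 8 pluripotency markers were present in every group, with summed levels of 1656 to 3233 CPM. The 6 primitive endoderm markers summed to 3.09 to 3.57 CPM in wild-type, with Gata4, Gata6, Sox17 and Dab2 at 0, and to 48.1 to 55.0 in Pcgf6-/-, 14.9 to 15.8 in the libraries labelled Pcgf1/2/4-/- and 56.6 to 65.2 in those labelled Pcgf3/5/6-/-. The 6 trophoblast markers summed to 129 to 136 CPM in wild-type and to 595 to 609 in the libraries labelled Pcgf3/5/6-/-. The 5 neural markers summed to 87.6 to 88.3 CPM in wild-type, 10.1 to 15.8 in Pcgf2/4-/-, with Neurod1 at 0, and 199 to 200.4 in the libraries labelled Pcgf3/5/6-/-, with 66.5 to 116 elsewhere. The 5 mesendoderm markers summed to 50.1 to 55.5 CPM in wild-type and to less in every knockout, from 7.97 to 8.09 in Pcgf6-/- to 30.4 to 34.9 in Pcgf1-/-. The 6 fibroblast or feeder markers summed to 10.8 to 15.0 CPM in wild-type, with Dcn and Postn at 0, to 27.3 to 30.4 in Pcgf6-/- and 35.8 to 38.5 in the libraries labelled Pcgf3/5/6-/-, and to 1.07 to 18.7 elsewhere. The part of these markers in the results below was not tested, and fewer cells of a type and less RNA per cell cannot be told apart in bulk samples.

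Start sites were read from the protein-coding transcripts of GENCODE M1, and a peak counted when it lay within 2.5 kb of a start. H3K4me3, the mark of active or poised starts, had a peak at 9 of 9 genes in wild-type, Pcgf1-/-, Pcgf2/4-/-, Pcgf3/5-/- and Pcgf6-/-, where 64.5% to 67.4% of 22359 protein-coding genes had one. In wild-type the authors' fold enrichment of the strongest such peak ran from 26.3 at Bcorl1 and 28.6 at Yaf2 to 80.3 at Usp7 and 85.2 at Ring1. RING1B itself had a wild-type peak at 4 of the 9, Yaf2, Kdm2b, Bcor and Bcorl1, against 14.9% of all genes. SUZ12, a core subunit of the other Polycomb complex, had wild-type peaks at the same 4, against 16.2%. PCGF2 had wild-type peaks at Kdm2b, Bcor and Bcorl1, against 12.5%. In wild-type, H3K27me3 peaks lay at Yaf2 and Kdm2b, against 12.5%, and no peak of PCGF1 (2.40% of genes), PCGF3 (0.823%), PCGF6 (5.55%) or H2AK119Ub1 (3.63%) lay at any member.

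The windows of 250 bases before the coding start show what these starts look like, with CG dinucleotides in capitals, read 5′ to 3′ on the gene's strand from NCBIM37. The 4 with a wild-type RING1B peak are shown first, at the start nearest to it for Kdm2b, and 2 without one follow.

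Yaf2 (chr15:93167240-93167489, minus): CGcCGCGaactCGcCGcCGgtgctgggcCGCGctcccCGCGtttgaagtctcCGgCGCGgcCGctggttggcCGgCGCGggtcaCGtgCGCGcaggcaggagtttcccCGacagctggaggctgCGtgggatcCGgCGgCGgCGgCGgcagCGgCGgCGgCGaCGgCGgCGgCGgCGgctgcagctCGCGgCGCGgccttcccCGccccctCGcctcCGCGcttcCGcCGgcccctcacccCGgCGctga
Kdm2b (chr5:123402516-123402765, minus): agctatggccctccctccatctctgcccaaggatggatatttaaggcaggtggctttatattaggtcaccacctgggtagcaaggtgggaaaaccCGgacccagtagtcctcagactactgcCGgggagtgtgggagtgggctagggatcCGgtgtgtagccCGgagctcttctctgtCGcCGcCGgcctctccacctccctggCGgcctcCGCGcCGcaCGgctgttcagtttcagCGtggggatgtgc
Bcor (chrX:11737482-11737731, minus): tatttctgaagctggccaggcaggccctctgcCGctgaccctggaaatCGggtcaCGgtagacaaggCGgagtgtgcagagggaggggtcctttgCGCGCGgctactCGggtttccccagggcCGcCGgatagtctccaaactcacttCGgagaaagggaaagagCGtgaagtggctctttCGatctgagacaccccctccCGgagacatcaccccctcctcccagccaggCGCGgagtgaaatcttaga
Bcorl1 (chrX:45694285-45694534, plus): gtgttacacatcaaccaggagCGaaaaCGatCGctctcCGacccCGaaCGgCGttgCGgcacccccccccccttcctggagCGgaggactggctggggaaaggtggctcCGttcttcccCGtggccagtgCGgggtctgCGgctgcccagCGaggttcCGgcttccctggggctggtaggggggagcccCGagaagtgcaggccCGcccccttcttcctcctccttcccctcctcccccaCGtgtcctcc
Rybp (chr6:100237436-100237685, minus): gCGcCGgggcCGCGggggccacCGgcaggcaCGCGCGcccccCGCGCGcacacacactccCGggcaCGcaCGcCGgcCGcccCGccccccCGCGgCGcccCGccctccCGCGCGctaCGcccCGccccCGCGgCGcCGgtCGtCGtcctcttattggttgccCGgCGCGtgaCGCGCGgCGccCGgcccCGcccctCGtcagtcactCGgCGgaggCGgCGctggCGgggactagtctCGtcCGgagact
Rnf2 (chr1:153347954-153348203, minus): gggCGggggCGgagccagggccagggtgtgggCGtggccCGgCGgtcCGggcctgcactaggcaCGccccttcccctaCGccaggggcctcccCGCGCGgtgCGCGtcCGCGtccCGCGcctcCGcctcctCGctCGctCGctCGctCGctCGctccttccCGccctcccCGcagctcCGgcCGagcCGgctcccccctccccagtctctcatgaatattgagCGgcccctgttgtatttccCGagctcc

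CG count alone did not separate the bound from the unbound starts. The bound windows held 48 at Yaf2, 13 at Kdm2b, 16 at Bcor and 18 at Bcorl1. The unbound ones held 49 at Rybp, 31 at Rnf2, 30 at Ring1, 25 at Skp1a and 4 at Usp7, against a median of 9 over 22359 genes. These are the starts farthest 5′, except for Kdm2b, which held 1 there. Usp7 held 55 at the start nearest to its strongest H3K4me3 peak. CACGTG, the E-box (both strands read the same), stood in the windows of Yaf2 and Bcorl1 among the starts farthest 5′, and in 6.53% of all such windows. TTCCCGCC, an E2F-type motif searched on both strands, stood in that of Rnf2, and in 2.45% of all.

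Against wild-type, 17 of 54 pairs of gene and knockout passed an adjusted p of 0.05 (edgeR quasi-likelihood test, Benjamini-Hochberg over 15464 genes), 8 raised and 9 lowered. They spread over 7 of the 9 genes, and no call fell on Rnf2, the RING1B gene, or Rybp. Of the 9 genes, 2 were raised and 1 lowered in Pcgf1-/-, where 32.3% of all tested genes were called (13.9% raised, 18.4% lowered). In Pcgf2/4-/- 0 were raised and 1 lowered, against 21.6% of all genes (8.1% raised, 13.5% lowered), and in Pcgf3/5-/- 0 were raised and 1 lowered, against 21.6% (11.1% raised, 10.4% lowered). In Pcgf6-/- 2 were raised and 2 lowered, against 46.5% (27.8% raised, 18.6% lowered). The libraries labelled Pcgf1/2/4-/- had 2 raised and 2 lowered, against 37.0% (14.4% raised, 22.6% lowered), and those labelled Pcgf3/5/6-/- 2 raised and 2 lowered, against 53.3% (28.0% raised, 25.3% lowered). Read against these backgrounds, 1 to 4 called members of 9 are no result about the 9 genes as a set. With the wild-type libraries summed as 1, 13 pairs passed: 2 in Pcgf1-/- (22.2% of all genes), 0 in Pcgf2/4-/- (14.2%), 1 in Pcgf3/5-/- (13.6%), 4 in Pcgf6-/- (38.6%), 2 in the libraries labelled Pcgf1/2/4-/- (24.3%) and 4 in those labelled Pcgf3/5/6-/- (45.9%). The median log2 fold change of the 9 genes ran from -0.10 to 0.16 over the 6 knockouts, beside -0.11 to 0.05 for all tested genes. In the test for any difference among the 7 genotypes, 7 of 9 passed, against 86.1% of all genes.

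**Figure D1:**
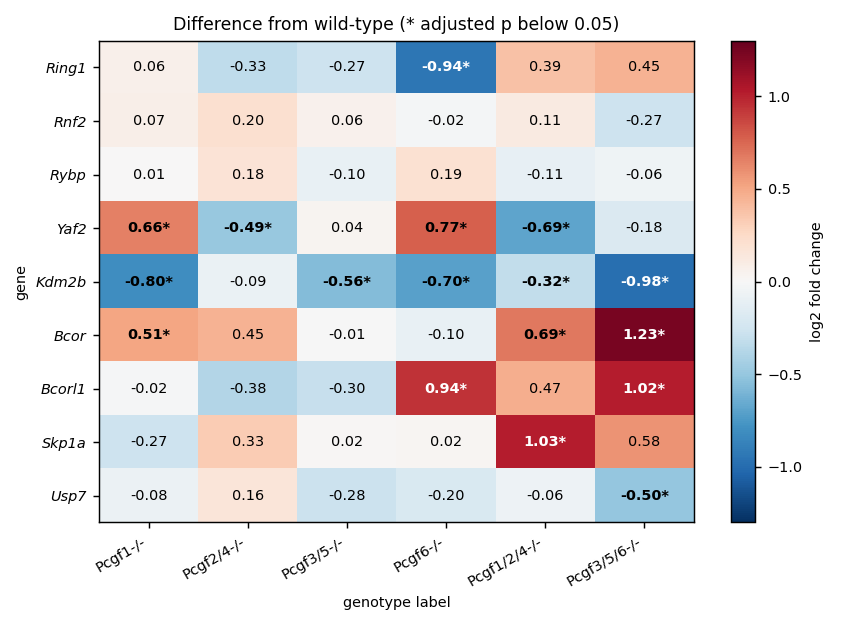
The log2 fold change of each gene (rows) in each genotype label against wild-type (columns), from the edgeR fit; red is higher, blue lower, and a star marks an adjusted p below 0.05. Kdm2b carries 5 of the 17 starred cells, all lower, and the Rnf2 and Rybp rows carry none.

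The catalytic subunits came at very different levels. Per length, in RPKM (CPM divided by exonic length in kilobases) in wild-type, Rnf2 stood at 89.8 and Ring1 at 2.31, and Ring1 made up 1.15% to 4.42% of the 2 genes' reads per kilobase in every library. Rnf2 (chr1:153316536-153347953, minus strand of NCBIM37) had 270 and 274 CPM in wild-type, 241 and 333 in Pcgf1-/-, 366 and 262 in Pcgf2/4-/-, 263 and 304 in Pcgf3/5-/-, 253 and 283 in Pcgf6-/-, 288 and 299 in the libraries labelled Pcgf1/2/4-/- and 226 and 225 in those labelled Pcgf3/5/6-/-. The knockout libraries lay on both sides of wild-type except in the triple knockouts, with both libraries labelled Pcgf3/5/6-/- the lowest of all 14. The log2 fold changes of Rnf2 ran from -0.27 to 0.20 with standard errors of 0.19, and none passed (smallest adjusted p 0.249, edgeR with Benjamini-Hochberg). With offsets that follow abundance or the counts per exonic base, the change in the libraries labelled Pcgf1/2/4-/- went from 0.11 to -0.34 and -0.33, and that in Pcgf3/5/6-/- to -0.34 and -0.33, and these 4 values passed. With only the groups compared in the fit, 0.18 in the libraries labelled Pcgf1/2/4-/- and -0.26 in those labelled Pcgf3/5/6-/- passed as well, so the direction of Rnf2 in the libraries labelled Pcgf1/2/4-/- depended on the scaling.

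Ring1 (chr17:34157737-34161625, minus strand) was the second rarest of the 9 genes per length and rested on 11 to 68 reads per library. It had 6.56 and 8.44 CPM in wild-type, 7.43 and 8.46 in Pcgf1-/-, 4.61 and 6.52 in Pcgf2/4-/-, 7.35 and 4.79 in Pcgf3/5-/-, 4.23 and 3.52 in Pcgf6-/-, 11.2 and 8.58 in the libraries labelled Pcgf1/2/4-/- and 9.48 and 11.2 in those labelled Pcgf3/5/6-/-. Both Pcgf6-/- libraries lay below every other library, and both libraries of each triple knockout lay above wild-type. Libraries without overlap with wild-type were common, at 80.4% of all tested genes in Pcgf6-/-, 76.4% in Pcgf1/2/4-/- and 85.5% in Pcgf3/5/6-/-. Ring1 fell by 0.94 on the log2 scale in Pcgf6-/- (SE 0.27, adjusted p = 0.0114, edgeR with Benjamini-Hochberg), and the call was lost without wild-type replicate 2 (adjusted p = 0.113, edgeR), without Pcgf6-/- replicate 2 (0.0835) and with counts thinned to the smallest library (-0.44, adjusted p = 0.411). The differences in the triple knockouts, 0.39 and 0.45, did not pass. Ring1 was higher in Pcgf1-/- than in Pcgf6-/- (log2 1.00, SE 0.28, adjusted p = 0.00717) and higher in the libraries labelled Pcgf3/5/6-/- than in Pcgf6-/- (1.39, SE 0.30, adjusted p = 0.00179). The latter held in all 23 other settings.

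**Figure D2:**
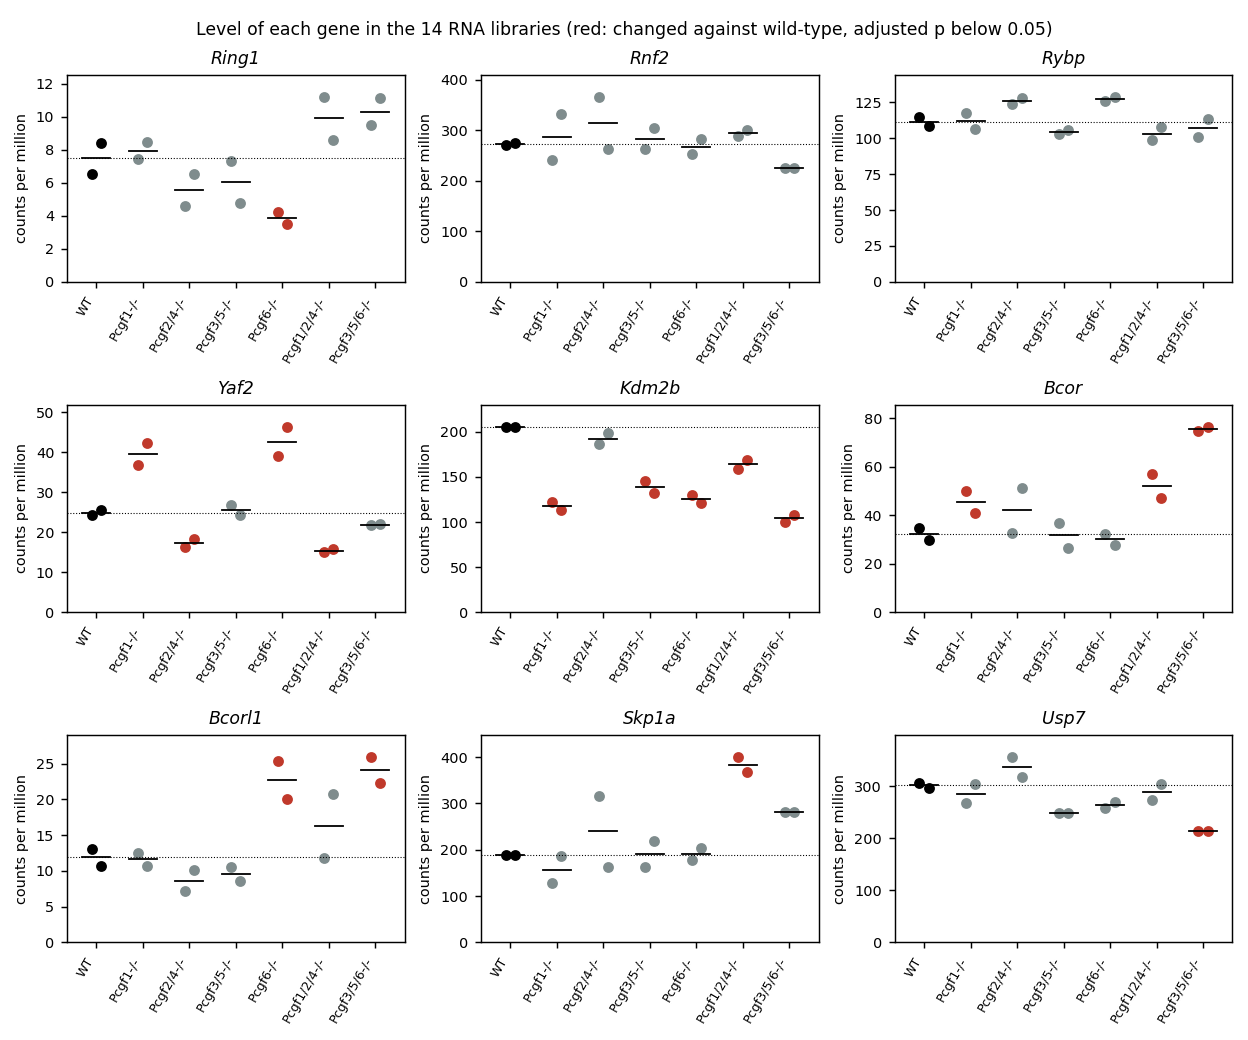
CPM of each gene in each of the 14 RNA libraries (points), with a bar at the mean of each genotype and a dotted line at the wild-type mean; red points mark genotypes with an adjusted p below 0.05 against wild-type. Kdm2b lies below wild-type in all 6 knockouts, and Yaf2 lies above it in Pcgf1-/- and Pcgf6-/- and below it in Pcgf2/4-/- and the libraries labelled Pcgf1/2/4-/-.

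RYBP and YAF2 are close relatives that fill the same place in variant PRC1. Rybp (chr6:100178560-100237435, minus strand) had 114 and 108 CPM in wild-type, 118 and 106 in Pcgf1-/-, 123.98 and 127.65 in Pcgf2/4-/-, 103 and 105 in Pcgf3/5-/-, 126 and 129 in Pcgf6-/-, 98.8 and 107 in the libraries labelled Pcgf1/2/4-/- and 101 and 113 in those labelled Pcgf3/5/6-/-. Its levels stayed within a narrow band, and its log2 fold changes ran from -0.11 to 0.19 with standard errors of 0.11. None passed in the edgeR fit, at an unadjusted p below 0.05 the count over Rnf2 and Rybp was 0 of 12, and DESeq2 called 0. With either set of offsets Rybp was raised by 0.30 in Pcgf6-/-, and with only the groups compared in the fit by 0.20.

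Yaf2 (chr15:93114709-93167366, minus strand) had 24.3 and 25.5 CPM in wild-type, 36.7 and 42.3 in Pcgf1-/-, 16.3 and 18.4 in Pcgf2/4-/-, 26.7 and 24.2 in Pcgf3/5-/-, 39.0 and 46.3 in Pcgf6-/-, 15.0 and 15.8 in the libraries labelled Pcgf1/2/4-/- and 21.8 and 22.0 in those labelled Pcgf3/5/6-/-. The levels formed 3 bands, with Pcgf1-/- and Pcgf6-/- above all others and Pcgf2/4-/- and Pcgf1/2/4-/- below all others. In these 4 genotypes 53.5% to 80.4% of all tested genes did not overlap with wild-type. Yaf2 rose by 0.66 in Pcgf1-/- (SE 0.13, adjusted p = 0.00193, edgeR with Benjamini-Hochberg) and by 0.77 in Pcgf6-/- (SE 0.13, adjusted p = 2.2e-04), and both calls held in all 23 other settings. It fell by 0.69 in the libraries labelled Pcgf1/2/4-/- (adjusted p = 0.00917, edgeR), which was lost with the offsets (to -0.36 at the least) and without either of those libraries, and by 0.49 in Pcgf2/4-/- (adjusted p = 0.0316), which was lost in 10 of 23 settings, among them the one with the wild-type libraries summed as 1 (adjusted p = 0.0927). The difference of Yaf2 between Pcgf1-/- and Pcgf2/4-/- was 1.15 (SE 0.15, adjusted p = 6.3e-05, edgeR) and that between the libraries labelled Pcgf1/2/4-/- and Pcgf1-/- was -1.35 (SE 0.17, adjusted p = 4.8e-05). The share of Yaf2 in the sum of Yaf2 and Rybp reads per kilobase was 33.5% and 35.9% in wild-type, 42.7% and 48.6% in Pcgf1-/- and 23.9% and 25.5% in Pcgf2/4-/-.

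**Figure D3:**
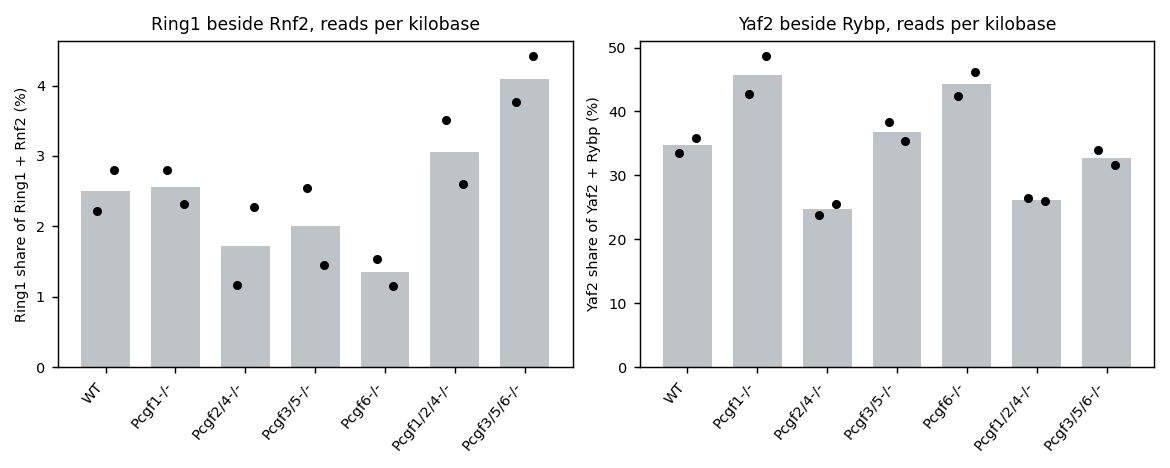
Share of Ring1 in the reads per kilobase of Ring1 and Rnf2 together (left) and of Yaf2 in those of Yaf2 and Rybp (right), in percent; points are the 2 libraries of each genotype label and bars their mean. Ring1 stays at 4.42% or less of its pair, and Yaf2 ranges from 23.9% to 48.6%.

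KDM2B is the subunit that brings the PCGF1 form to CpG islands. Kdm2b (chr5:123320677-123465089, minus strand) had 205 and 205 CPM in wild-type, 122 and 113 in Pcgf1-/-, 187 and 198 in Pcgf2/4-/-, 146 and 132 in Pcgf3/5-/-, 130 and 122 in Pcgf6-/-, 159 and 169 in the libraries labelled Pcgf1/2/4-/- and 99.8 and 108 in those labelled Pcgf3/5/6-/-. All 12 knockout libraries lay below both wild-type libraries, while 53.5% to 85.5% of all tested genes did not overlap with wild-type in a given knockout, in either direction. The share of genes below wild-type in all 12 libraries was not computed, and the 6 comparisons share the wild-type libraries. Kdm2b fell by 0.80 in Pcgf1-/- (SE 0.12, adjusted p = 1.7e-04), by 0.56 in Pcgf3/5-/- (adjusted p = 0.00384), by 0.70 in Pcgf6-/- (adjusted p = 2.0e-04) and by 0.98 in the libraries labelled Pcgf3/5/6-/- (adjusted p = 1.3e-05), all by edgeR with Benjamini-Hochberg adjustment. The Pcgf3/5-/- call was lost without Pcgf3/5-/- replicate 2 (change -0.49, adjusted p = 0.0569), and the other 3 held in all 23 settings. In the libraries labelled Pcgf1/2/4-/- the change was -0.32 (adjusted p = 0.0492) and held in 6 of 23 settings, with values of -0.47 to -0.03, and in Pcgf2/4-/- it was -0.09. The authors' deposited table gave -0.24 with an adjusted p of 0.121 for Kdm2b in Pcgf1/2/4-/-. Pcgf1-/- lay below Pcgf2/4-/- (difference -0.71, adjusted p = 5.6e-04, edgeR), and the libraries labelled Pcgf1/2/4-/- lay above Pcgf1-/- (0.48, adjusted p = 0.00649, edgeR), which was lost in 3 of 23 settings and fell to 0.21 with offsets that follow abundance. Kdm2b shares exonic bases with A930024E05Rik and Orai1 on the other strand, and the counting's use of strand is not given in the sources used here. Kdm2a, its paralog outside the PCGF1 complex, was lowered in 5 of the 6 knockouts, by 0.44 to 1.04 on the log2 scale, and had -0.19 in Pcgf1-/- with no call.

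BCOR and BCORL1 are alternative scaffolds of the PCGF1 form. Bcor (chrX:11613866-11737481, minus strand) had 34.5 and 29.8 CPM in wild-type, 50.0 and 40.9 in Pcgf1-/-, 32.7 and 51.2 in Pcgf2/4-/-, 36.6 and 26.7 in Pcgf3/5-/-, 32.1 and 27.9 in Pcgf6-/-, 57.1 and 47.0 in the libraries labelled Pcgf1/2/4-/- and 74.9 and 76.4 in those labelled Pcgf3/5/6-/-. The 2 libraries labelled Pcgf3/5/6-/- stood above all others, in a genotype where 85.5% of all tested genes did not overlap with wild-type. Bcor rose there by 1.23 (SE 0.19, adjusted p = 9.6e-05, edgeR), which held in all 23 settings and was as large against Pcgf3/5-/- (1.24) and Pcgf6-/- (1.33). In the libraries labelled Pcgf1/2/4-/- it rose by 0.69 (adjusted p = 0.021, edgeR) and in Pcgf1-/- by 0.51 (adjusted p = 0.0494). With the wild-type libraries summed as 1 neither passed (adjusted p = 0.0597 and 0.134, edgeR), and under the replicate block the Pcgf1-/- call was lost (adjusted p = 0.0628). Of the other settings 11 of 23 kept the Pcgf1-/- call. Bcor shares 58 exonic bases with 2900008C10Rik on the same strand.

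Bcorl1 (chrX:45694535-45761226, plus strand) was the rarest of the 9 genes per length, at 1.40 RPKM in wild-type. It had 13.1 and 10.7 CPM in wild-type, 12.5 and 10.7 in Pcgf1-/-, 7.12 and 10.1 in Pcgf2/4-/-, 10.6 and 8.63 in Pcgf3/5-/-, 25.4 and 20.1 in Pcgf6-/-, 11.7 and 20.8 in the libraries labelled Pcgf1/2/4-/- and 25.9 and 22.3 in those labelled Pcgf3/5/6-/-. Pcgf6-/- and the libraries labelled Pcgf3/5/6-/- lay above both wild-type libraries without overlap, where 80.4% and 85.5% of all tested genes did not overlap with wild-type. Bcorl1 rose by 0.94 in Pcgf6-/- (SE 0.22, adjusted p = 0.00281, edgeR) and by 1.02 in the libraries labelled Pcgf3/5/6-/- (SE 0.24, adjusted p = 0.00257). With the offsets on counts per exonic base these became 0.57 and 0.62, still called, and thinning ended the Pcgf6-/- call (adjusted p = 0.101). The difference between these 2 genotypes was 0.08 (SE 0.23), while Pcgf1-/- differed from Pcgf6-/- by -0.95 (adjusted p = 0.0024, edgeR; -0.57 at the least over the other settings). In the same libraries the primitive endoderm markers and the fibroblast or feeder markers were higher than in wild-type, as given above. The primitive endoderm markers were also higher in the libraries labelled Pcgf1/2/4-/- (14.9 to 15.8 CPM) and in Pcgf3/5-/- (5.18 to 6.42), against 3.09 to 3.57 in wild-type. Bcorl1 was not called in those, and the part of these markers was not tested. Bcorl1 made up 24.3% and 23.2% of the reads per kilobase of Bcorl1 and Bcor in wild-type and 40.0% and 37.8% in Pcgf6-/-.

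Skp1a and Usp7 act in many complexes besides PRC1. Skp1a (chr11:52045497-52060360, plus strand) had 188 and 189 CPM in wild-type, 128 and 186 in Pcgf1-/-, 316 and 163 in Pcgf2/4-/-, 164 and 219 in Pcgf3/5-/-, 179 and 205 in Pcgf6-/-, 400 and 368 in the libraries labelled Pcgf1/2/4-/- and 282 and 282 in those labelled Pcgf3/5/6-/-. The 2 libraries of Pcgf2/4-/- were far apart, on both sides of wild-type. Skp1a rose by 1.03 in the libraries labelled Pcgf1/2/4-/- (SE 0.26, adjusted p = 0.00769, edgeR). With the 2 kinds of offsets this became 0.66 and 0.58, and the call was lost without wild-type replicate 1 or Pcgf1/2/4-/- replicate 1. In the libraries labelled Pcgf3/5/6-/- the difference was 0.58 with an adjusted p of 0.0717 in edgeR. DESeq2 gave 0.65 with an adjusted p of 0.0355, and the authors' deposited table gave 0.65 with 0.0342. Usp7 (chr16:8688815-8792401, minus strand) had 306 and 297 CPM in wild-type and 213 and 213 in the libraries labelled Pcgf3/5/6-/-, with 248.33 to 356.03 in the other knockouts. It fell by 0.50 there (SE 0.14, adjusted p = 0.00891, edgeR), or by 0.26 with the offsets on counts per exonic base, and the call was lost without wild-type replicate 1 or Pcgf3/5/6-/- replicate 1.

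The triple knockouts were also set against their parts, and Pcgf1-/- against the other lines, in the same edgeR fit. Between the libraries labelled Pcgf1/2/4-/- and Pcgf1-/-, 2 of the 9 genes were higher and 1 lower in the triple knockout, where 41.6% of all genes were called (19.6% higher, 22.0% lower, and 37.5% in all with the wild-type libraries summed as 1). Against Pcgf2/4-/- 1 was higher, Bcorl1 at 0.85, against 30.0% of all genes (11.6% higher, 18.4% lower), and that call held in 10 of 23 settings. Between the libraries labelled Pcgf3/5/6-/- and Pcgf3/5-/- 3 were higher and 1 lower, against 51.8% (27.1% higher, 24.7% lower), and between them and Pcgf6-/- 2 were higher and 1 lower, against 46.0% (19.0% higher, 27% lower). Pcgf1-/- had 1 higher and 1 lower than Pcgf2/4-/-, against 29.5% (15.1% higher, 14.3% lower). It had 1 higher than Pcgf3/5-/-, Yaf2 at 0.62, against 29.6% (13.0% higher, 16.6% lower), and 2 higher and 1 lower than Pcgf6-/-, against 52.5% (20.3% higher, 32.2% lower). Skp1a stood 1.29 higher in the libraries labelled Pcgf1/2/4-/- than in Pcgf1-/- (adjusted p = 0.00154, edgeR with Benjamini-Hochberg), or 0.78 at the least over the other settings. Bcorl1 stood 1.31 higher in the libraries labelled Pcgf3/5/6-/- than in Pcgf3/5-/- (adjusted p = 5.1e-04, edgeR), and Yaf2 0.96 lower than in Pcgf6-/- (log2 -0.96, adjusted p = 1.4e-04). These 3 held in all 23 settings.

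**Figure D4:**
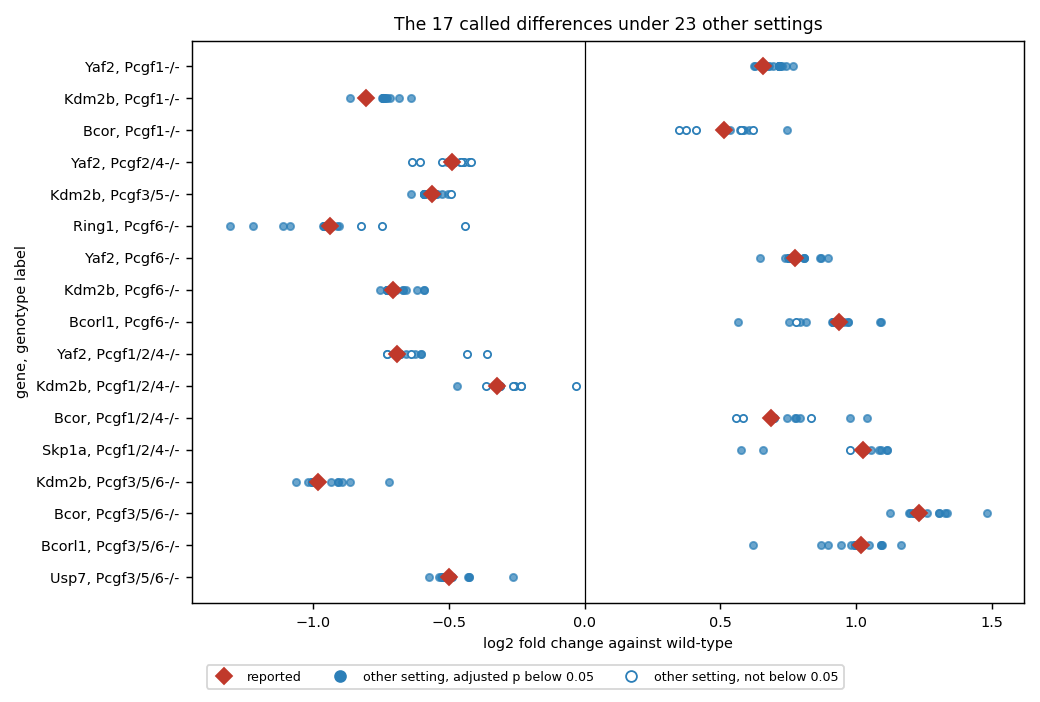
The 17 called differences from wild-type (rows) under the reported edgeR fit (red diamonds) and 23 other settings (circles, filled where the adjusted p is below 0.05), as log2 fold change. No circle crosses 0, and 7 rows have filled circles alone: Yaf2 and Kdm2b in Pcgf1-/- and Pcgf6-/-, and Kdm2b, Bcor and Bcorl1 in the libraries labelled Pcgf3/5/6-/-.

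At Yaf2 the wild-type RING1B peak spanned 667 bases with its summit 620 bases before the start and an authors' fold enrichment of 6.76. RING1B peaks remained listed there in Pcgf1-/- (6.93), Pcgf2/4-/- (5.11), Pcgf3/5-/- (5.09) and 1 of 2 samples labelled Pcgf1/2/4-/- (5.80), and none was listed in Pcgf6-/- or Pcgf3/5/6-/-. Of all protein-coding genes, 14.9% had a RING1B peak in wild-type, 15.0% in Pcgf1-/-, 16.8% in Pcgf2/4-/- and 15.2% in Pcgf3/5-/-. The share was 12.4% in Pcgf6-/-, 7.77% in Pcgf3/5/6-/-, and 6.7% and 6.02% in the 2 samples labelled Pcgf1/2/4-/-. RING1B peaks were thus fewer over all genes in the triple knockouts, and a peak missing there is no result about these members. SUZ12 peaks at Yaf2 were listed in wild-type and Pcgf2/4-/- alone of the 7 genotypes. PCGF1 peaks at Yaf2 were listed in Pcgf6-/- (5.88), Ezh1/2-/- (5.87) and Ring1a-/-_Ring1bfl (7.87), and PCGF6 peaks in Pcgf2/4-/- (9.79) and shCtr (7.53). Yaf2 RNA was raised in Pcgf1-/-, where the RING1B peak was listed, and in Pcgf6-/-, where it was not. The part of that peak in Yaf2 RNA was not tested.

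Kdm2b had several starts, and its strongest wild-type RING1B peak (fold enrichment 10.3) lay at an internal coding start at position 123402515 of chromosome 5, 274 bases past it. At the start farthest 5′ it was not counted, so that with that start alone RING1B was listed at 3 of 9 genes and PCGF2 at 2 of 9. RING1B was listed at Kdm2b in wild-type, the 4 single and double knockouts (8.09 to 12.8) and Pcgf3/5/6-/- (5.53). It was not listed there in either Pcgf1/2/4-/- sample, where 6.7% and 6.02% of all genes had a RING1B peak, against 14.9% in wild-type. SUZ12 was listed there in all 7 genotypes, with the highest fold enrichment in Pcgf6-/- (18.2).

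Bcor carried 7 wild-type RING1B peaks over 10352 bases at its starts, more than any other member, the strongest at 11.3 fold. RING1B peaks were listed there in wild-type, Pcgf1-/- (16.5), Pcgf2/4-/- (6.20), Pcgf3/5-/- (16.96), Pcgf6-/- (16.09) and Pcgf3/5/6-/- (6.11, 7.77% of all genes). None was listed there in either Pcgf1/2/4-/- sample (6.7% and 6.02% of all genes). Its summed RING1B width was 333 bases in the sample labelled Pcgf3/5/6-/-, the line in which Bcor RNA was highest. That list held 3068 peaks, against 5454 in wild-type, and its part in the narrower signal was not tested. The width was 1809 bases in Pcgf2/4-/- (5607 peaks), 10412 in Pcgf3/5-/- and 17807 in Pcgf6-/-, with Bcor RNA not called in these. In Pcgf1-/-, where Bcor RNA was called raised, it was 14597 bases. In Pcgf1/2/4-/-, with no RING1B peak listed at Bcor in either sample, Bcor RNA was also called raised (log2 0.69). These Pcgf1-/- and Pcgf1/2/4-/- calls were both lost with the wild-type libraries summed as 1. The part of RING1B width in Bcor RNA was not tested. The summed PCGF2 width at Bcor was 3623 bases in wild-type and 29338 in Pcgf6-/-, in a list of 7739 against 4472 peaks, while Bcor RNA was not called there. At Bcorl1 RING1B was listed in wild-type (6.58), Pcgf3/5-/- (5.29), Pcgf6-/- (6.53) and Pcgf3/5/6-/- (5.56), and not in Pcgf1-/-, Pcgf2/4-/- or Pcgf1/2/4-/-. Bcorl1 RNA was called raised in 2 lines, Pcgf6-/- and Pcgf3/5/6-/-, each with a RING1B peak listed in its 1 sample. The part of that peak was not tested.

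**Figure D5:**
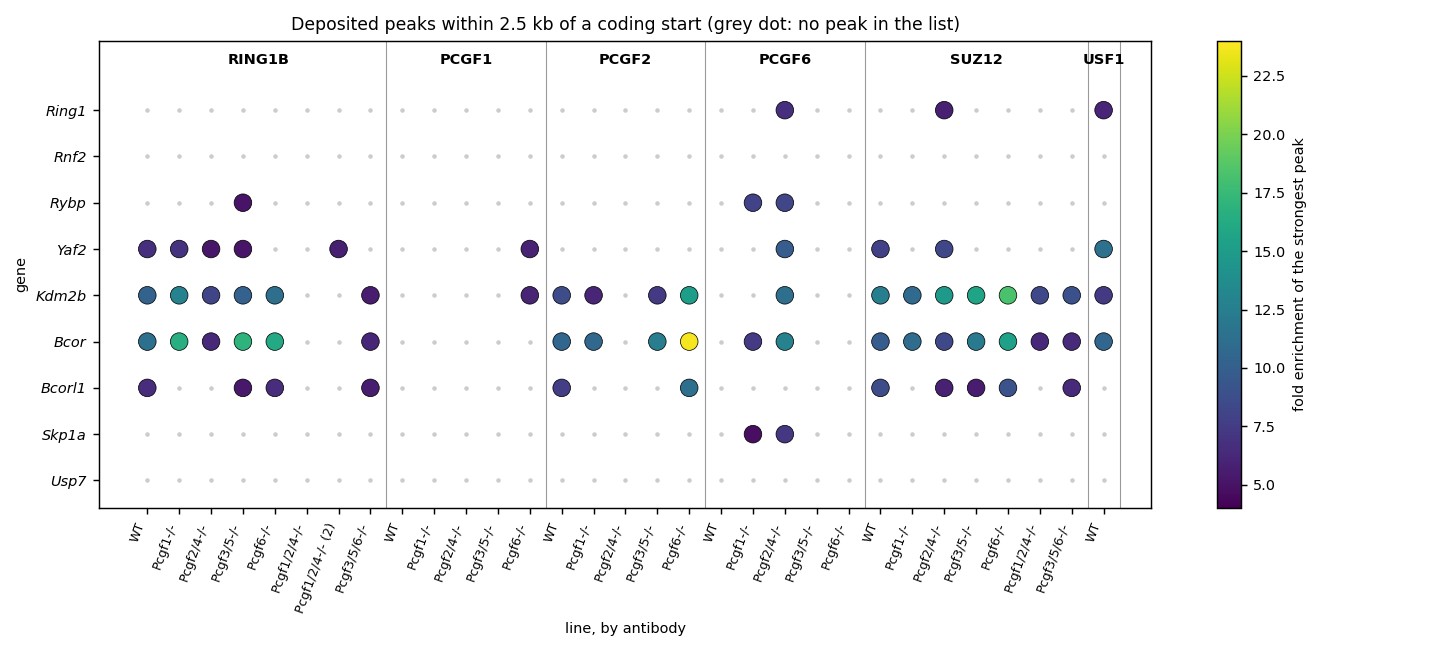
Deposited peaks within 2.5 kb of a coding start of each gene (rows), by antibody and line (columns); the colour of a filled circle is the authors' fold enrichment of the strongest peak and a grey dot means no listed peak. RING1B, PCGF2 and SUZ12 circles gather at Kdm2b and Bcor, Skp1a has none of these 3, and Rnf2 and Usp7 have no circle in any column.

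Rybp had a RING1B peak in Pcgf3/5-/- alone (5.08), where 15.2% of genes had one. Rnf2, the RING1B gene itself, had no peak of RING1B, SUZ12 or any PCGF protein in any list. PCGF2 peaks were listed at Kdm2b, Bcor and Bcorl1 in wild-type, in Pcgf6-/- (19.1% of genes) and in Ring1a-/-_Ring1bfl (9.35%), at Kdm2b and Bcor in Pcgf1-/- (12.2%) and Pcgf3/5-/- (9.44%), and at none in Pcgf2/4-/- (3.31%), Ring1a/b-/- (1.46%) or Ezh1/2-/- (0.742%). PCGF1 peaks were listed at 2 members in Pcgf6-/- (9.58%), 3 in Ezh1/2-/- (10.8%), 8 in Ring1a-/-_Ring1bfl (31.3%) and 1, Skp1a, in Ring1a/b-/- (4.05%), and at none in Pcgf1-/- (0.00894%), Pcgf2/4-/- (5.43%) or Pcgf3/5-/- (0.738%). PCGF6 peaks were listed at 3 in Pcgf1-/- (17.2%), 6 in Pcgf2/4-/- (31.7%), 3 in shCtr (19.6%), 1, Bcor, in Ring1a-/-_Ring1bfl (5.87%) and none in Pcgf3/5-/- (5.13%), Pcgf6-/- (1.39%), Ring1a/b-/- (4.51%) or the 4 hairpin lines whose labels name MGA or E2F6 (0.608% to 2.16%). PCGF3 peaks were listed at no member in any of its lists, shUsf1 and shUsf2 included (0.00894% to 2.21% of genes). The lists ran from 15 to 12842 peaks for PCGF1 and PCGF6. One sample a line gives no replicate error, so no difference between lines was tested. A missing peak says only that none was called.

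H2AK119Ub1, the ubiquitin mark that RING1 proteins place, was listed at 0 members in wild-type, 2 in Pcgf1-/- (Kdm2b and Bcor, 9.27% of genes), 5 in Pcgf2/4-/- (39.3%), 9 in Pcgf3/5-/- (64.2%), 0 in Pcgf6-/- (6.63%) and in both Pcgf1/2/4-/- samples (1.53% and 0.796%), and 8 in Pcgf3/5/6-/- (30.8%). Those lists ran from 1070 to 128786 peaks. H3K27me3 was listed at Yaf2 and Kdm2b in wild-type, at these and Bcor in Pcgf1-/- (18.9%), at these, Ring1, Bcor and Bcorl1 in Pcgf2/4-/- (35.1%), at Yaf2, Kdm2b, Bcor and Bcorl1 in Pcgf3/5-/- (20.4%), at Kdm2b alone in Pcgf6-/- (13.3%), at no member in Pcgf1/2/4-/- (5.32%) and at the same 4 as Pcgf3/5-/- in Pcgf3/5/6-/- (19.4%).

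USF1, a factor that binds CACGTG, had wild-type peaks at 4 of the 9 genes, Ring1, Yaf2, Kdm2b and Bcor, against 15.2% of all genes. A CACGTG lay 6, 3 and 15 bases from the summit at Ring1, Yaf2 and Bcor, and none lay in the peak at Kdm2b, while 76.3% of all 9659 USF1 peaks held one. The 30 bases around each, on the plus strand with the E-box in capitals, are given because they are the sites nearest to the summits.

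Ring1 (chr17:34164100-34164129): cttcccagcgccCACGTGgctagctggcct
Yaf2 (chr15:93167390-93167419): cctgcctgcgcgCACGTGacccgcgccggc
Bcor (chrX:11737254-11737283): cggccaccgccgCACGTGacccgcccccgt

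The rest of PRC1 gives the setting for the 9 genes. Of all tested genes, 13.9% rose and 18.4% fell in Pcgf1-/-, 8.1% and 13.5% in Pcgf2/4-/-, 11.1% and 10.4% in Pcgf3/5-/-, 27.8% and 18.6% in Pcgf6-/-, 14.4% and 22.6% in the libraries labelled Pcgf1/2/4-/- and 28.0% and 25.3% in those labelled Pcgf3/5/6-/-, so the counts below are descriptions and nothing is called particular to a list. Of 10 genes of canonical PRC1, which holds CBX and PHC proteins, 2 rose and 1 fell in Pcgf1-/-, 1 rose in Pcgf2/4-/-, Cbx8 at 1.497, and 1 rose and 2 fell in Pcgf3/5-/-. In Pcgf6-/- 4 rose, Scml2 the most at 5.56, and 4 fell, in the libraries labelled Pcgf1/2/4-/- 3 rose and 0 fell, and in those labelled Pcgf3/5/6-/- 6 rose and 0 fell, with Scml2 at 3.71. The median log2 fold change of the 10 genes ran from -0.11 to 0.30 in the other 5 knockouts and was 1.01 in the libraries labelled Pcgf3/5/6-/-, beside -0.11 to 0.05 for all tested genes. Of 6 PCGF genes, targeted ones included, 0 to 2 rose and 1 to 3 fell per knockout. Pcgf5 was raised in Pcgf6-/- by 1.83 and lowered in Pcgf1-/- by 1.28 and in Pcgf2/4-/- by 1.17, and Bmi1 was raised in Pcgf3/5-/- by 0.60 and in Pcgf6-/- by 0.88 and lowered in the libraries labelled Pcgf3/5/6-/- by 0.56. Pcgf1 itself stood at 25.9 to 33.5 CPM in the libraries labelled Pcgf3/5/6-/-, against 61.0 to 66.1 in wild-type. It had 47.2 to 49.5 CPM in Pcgf6-/-, 55.6 to 58.1 in Pcgf3/5-/- and 66.7 to 88.4 in Pcgf2/4-/-. Of 8 genes for H2A deubiquitination, 0 rose and 2 fell in Pcgf1-/-, 0 and 1 in Pcgf2/4-/-, 0 and 1 in Pcgf3/5-/-, 4 and 2 in Pcgf6-/-, 1 and 2 in the libraries labelled Pcgf1/2/4-/-, and 2 and 2 in those labelled Pcgf3/5/6-/-. Of 10 partners of the PCGF6 form, 0 to 3 rose and 0 to 2 fell per knockout. Of 7 partners of the PCGF3/5 form, 0 to 2 rose and 0 to 2 fell. The largest of these was Fbrsl1, raised by 2.13 in Pcgf2/4-/-.

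Among the 14 libraries, the genes whose log2 CPM followed these genes most closely, out of 11616, were Adipor2 (Pearson r 0.93) and Letm1 (0.91) for Ring1, Matr3 (0.99) and Utp11l (0.98) for Rnf2, Zfp85 (0.90) and Maml2 (0.89) for Rybp, and 1700003M02Rik (0.95) and Mpp6 (0.94) for Kdm2b. Within the 9, r ran from -0.69 for Ring1 and Rybp to 0.77 for Ring1 and Bcor. The libraries share genotypes and a trend with counts per exonic base, so these values are descriptions.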

How the data were processed

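The 9 members and the gene lists were chosen with earlier results of these data known. The authors deposited whole-number read counts per gene for 23377 genes, the log2 fold changes and p-values of their own comparisons, and 80 peak lists with fold ratios over background and −log10 q values, per the file headers. The submitters' processing notes name TopHat2 2.1.1, HTSeq 0.7.2, Bowtie 1.2.2, MACS2 2.1.1 and the mm9 build. The use of strand in counting is not given in the sources used here.

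Counts were tested with edgeR 4.0.16 in R 4.3.3: 14 libraries in 7 groups, filterByExpr, TMM factors, a quasi-likelihood fit and Benjamini-Hochberg adjustment over 15464 genes, for 13 comparisons. DESeq2 1.42.0 was an alternative. On simulated counts for Pcgf1-/- against wild-type over 14480 genes, the script recovered 34.3% of genes changed 1.5-fold and 94.0% of those changed 2-fold. The simulated counts had 1 spread (dispersion 0.015) for all genes, no trend between replicates and changes in better-expressed genes alone. These shares check the script, and recovery in the real libraries was not measured. Depth was 2147968 to 7848161 counts a library, and Ring1 and Bcorl1 rested on as few as 11 and 17 reads. Replicate ratios moved with counts per exonic base (0.68 log2 between the top and bottom decile of genes in Pcgf2/4-/-, -0.56 in Pcgf1-/-), so offsets fitted on it were added. Peaks were matched to coding starts of GENCODE M1 on NCBIM37. Alternatives were other scalings, filters, fits and windows, leaving out each library, and a replicate block. Named genes are the 9 members, the targeted genes, at most 2 genes per list and comparison with the largest called change, and the 2 genes most like each of Ring1, Rnf2, Rybp and Kdm2b.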

Additional observations from a re-analysis of the deposited data

Results flagged for a closer look

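Yaf2 differed in direction between knockouts. It was flagged because its calls against wild-type went in opposite directions and the direct test passed, so that test was part of the choice. Yaf2 was raised in Pcgf1-/- and lowered in Pcgf2/4-/-, where the call was kept in 13 of 23 settings. The authors' deposited table gave -0.46 with an adjusted p of 0.0843 there. The direct difference between Pcgf1-/- and Pcgf2/4-/- was 1.15 on the log2 scale (SE 0.15, adjusted p = 6.3e-05, edgeR quasi-likelihood test with Benjamini-Hochberg). Between the libraries labelled Pcgf1/2/4-/- and Pcgf1-/-, Yaf2 differed by -1.35 (SE 0.17, adjusted p = 4.8e-05, edgeR). Both differences held in all 23 other settings, at 1.11 to 1.26 and -1.46 to -1.04.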

How the results depend on the processing

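All 17 calls against wild-type kept their direction in all 23 other settings, and 7 kept their call in each. The counts below are of the 9 genes called, and the cause of each move was not tested. With the wild-type libraries summed as 1, which was added after the data were seen, 13 of 17 calls were made. In Pcgf2/4-/- the count went from 1 to 0 with DESeq2, no filter, only the groups compared, thinned counts and wild-type summed, and to 2 with offsets on counts per exonic base, also added after the data were seen. That offset gave 2 in Pcgf3/5-/- (from 1). Thinning gave 2 in Pcgf6-/- (from 4), and wild-type summed gave 2 in Pcgf1/2/4-/- (from 4). A least change of 1 on the log2 scale left 0 in Pcgf1-/-, Pcgf2/4-/-, Pcgf3/5-/- and Pcgf6-/-, 1 in Pcgf1/2/4-/-, 2 in Pcgf3/5/6-/-, and in the direct comparisons 0 for Pcgf1/2/4-/- with Pcgf2/4-/-, 2 for Pcgf3/5/6-/- with Pcgf3/5-/-, 1 for Pcgf1-/- with Pcgf2/4-/-, 0 with Pcgf3/5-/- and 1 with Pcgf6-/-. Offsets gave 6 and 6 for Pcgf1/2/4-/- with Pcgf1-/- (from 3), 6 and 5 with Pcgf2/4-/- (from 1), 6 and 6 for Pcgf3/5/6-/- with Pcgf6-/- (from 3), and 2 and 4 for Pcgf1-/- with Pcgf3/5-/- (from 1), abundance first. For Pcgf1/2/4-/- with Pcgf2/4-/-, DESeq2, no filter and thinning gave 2, and the replicate block, only the groups compared and wild-type summed gave 0. Only the groups compared gave 7 for Pcgf3/5/6-/- with Pcgf6-/- and 1 for Pcgf1-/- with Pcgf2/4-/-. For Pcgf1-/- with Pcgf3/5-/-, RLE factors, DESeq2, no filter and only the groups compared gave 2 and thinning 0, and thinning gave 0 for Pcgf1-/- with Pcgf6-/-. Leaving out 1 library gave 2 to 3 in Pcgf1-/-, 0 to 1 in Pcgf2/4-/-, 0 to 2 in Pcgf3/5-/-, 3 to 4 in Pcgf6-/-, 0 to 4 in Pcgf1/2/4-/- and 3 to 5 in Pcgf3/5/6-/-. In the direct comparisons it gave 2 to 3 and 0 to 1 for Pcgf1/2/4-/- with Pcgf1-/- and Pcgf2/4-/-, 2 to 6 and 3 to 6 for Pcgf3/5/6-/- with Pcgf3/5-/- and Pcgf6-/-, 2 to 3, 1 to 2 and 1 to 3 for Pcgf1-/- with Pcgf2/4-/-, Pcgf3/5-/- and Pcgf6-/-, and 6 to 8 for any genotype. Where that leaves 1 library in a group, it was assumed to vary like the others.

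Reversed values came from the offsets alone. Rnf2 went to -0.34 (abundance) and -0.33 (exonic base) in Pcgf1/2/4-/- against wild-type and to -0.47 and -0.47 against Pcgf1-/-, and Usp7 to -0.51 (abundance) against Pcgf1-/-.

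The replicate numbers do not pair the libraries (correlation of deviations -0.46 to 0.38 over 21 pairs of groups, 3 of them over 0.1). With the replicate block 15 of the 17 calls were made. Ring1 and Bcorl1, at 11 and 17 reads in their shallowest libraries, are limited by depth, and peak lists from 1 sample a line carry no replicate error.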
